A study of Homo sapiens with 30 samples.

Results

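The 9 medium-dose libraries (100 µg/mL) of the 4 herbal formulas were set against the 9 low-dose libraries (20 µg/mL) of the same formulas, with formula as a block. The libraries were chosen by the dose in their titles and are 18 of the 30 libraries of the series. RNA was sequenced from HT29, an established line of human colorectal adenocarcinoma, after 24 h with a 70% ethanol extract of one of the traditional formulas. Each dose had 3 libraries of Soshiho-tang, 3 of Yijin-tang, 2 of Okbyeongpung-san and 1 of Soyo-san. The remaining libraries, 9 at 500 µg/mL and 3 of vehicle, serve below only to place the levels. All doses are those of the labels. By the design text, the top dose of an extract that inhibited 20% below 500 µg/mL was that IC20, with the lower doses diluted from it, so the true doses are uncertain, and the vehicle is 0.1% DMSO in the labels but 2% DMSO in the design text. Nothing states that replicates came from separate cultures, so a p-value here measures no more than the spread between the libraries at hand, which may be technical. Of the 18 libraries, 14 are titled batch E and 4 batch D, which holds both Soyo-san libraries and the third Okbyeongpung-san replicate; no label says what a batch is.

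Plant extracts carry flavonoids and other small aromatic molecules that cells meet with inducible programmes. The aryl hydrocarbon receptor (AHR) binds such ligands and switches on cytochrome P450 genes of family 1. NRF2 is released from KEAP1 by electrophiles and drives genes for glutathione, thioredoxin and aldehyde metabolism. Cholesterol supply is set by SREBP2, which INSIG1 holds in the endoplasmic reticulum together with SCAP when sterols are plentiful; INSIG1 is itself one of its target genes. Intestinal tumour lines such as HT29 also keep part of the WNT-driven crypt programme and of the goblet cell programme.

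Library totals ran from 20998695 to 27309588 counts at the medium dose and from 19836372 to 27035727 counts at the low dose. Of 14923 genes tested, 12022 averaged at least 2 CPM (gene counts scaled by library size), and for these the median standard error of the log2 fold change was 0.03 in the pooled comparison, against 0.06 within Soshiho-tang or Yijin-tang and 0.07 within Okbyeongpung-san. The 8 HT29 markers summed to between 10859 and 11698 CPM in medium-dose libraries and between 10754 and 11441 CPM in low-dose libraries, although CDX1 and CDX2 were low. Most of that sum was the keratins KRT8 and KRT18, at 5594 to 6353 and 3734 to 4056 CPM in medium-dose libraries. Of 20 markers of fibroblasts, endothelium, leukocytes, red cells and hepatocytes, 5 were high enough to be tested, and none had an unadjusted p below 0.05. The sum of the 20, 1536 to 1696 CPM at the medium dose against 1544 to 1670 CPM at the low dose, was nearly all LYZ. COL1A2, KDR, CD3E, ALB and APOA2 were at or near 0. Other markers of these cell types were detected at low levels. Medium-dose libraries held 0.85 to 1.7 CPM of COL1A1, 0.44 to 0.97 of LUM, 0.76 to 1.7 of PECAM1 and 2.7 to 3.8 of CD14. Low-dose libraries held 1.0 to 1.7, 0.58 to 1.2, 0.96 to 1.5 and 2.6 to 3.6 CPM of the same genes. The medium-dose library of Okbyeongpung-san replicate 2 stood apart. It lay at 19.1 on the first principal component, where the other 17 libraries lay between −4.18 and 1.17.

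Raising the dose from 20 to 100 µg/mL changed 4 genes by an adjusted p below 0.05 (edgeR quasi-likelihood test, Benjamini-Hochberg over all genes tested), which is 0.0268% of those tested. AKR1B10 rose (0.0067% of genes were called higher), and INSIG1, LZTS3 and PLEKHB1 fell (0.0201% were called lower). Within Soshiho-tang, Yijin-tang or Okbyeongpung-san alone, at the same filter and spread, edgeR called 0 genes in each, and Soyo-san has 1 library per dose and no test. The changes were small: log2 fold changes of the called genes lay between 0.14 and 0.33 in size.

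At an unadjusted p below 0.05 the pooled comparison held 1327 genes (8.89%), 662 higher (4.44%) and 665 lower (4.46%). Soshiho-tang alone held 545 (3.65%), Yijin-tang 586 (3.93%) and Okbyeongpung-san 1230 (8.24%). By DESeq2 the pooled comparison called 9 genes, Soshiho-tang 0, Yijin-tang 1 and Okbyeongpung-san 3. Without the Okbyeongpung-san library that stood apart, the unadjusted count was 1422 in the pooled comparison and 540 within Okbyeongpung-san, and edgeR called 2 pooled genes, INSIG1 and PLEKHB1. Without the other medium-dose library of that formula, which leaves the one that stood apart, edgeR called 1129 genes within Okbyeongpung-san and 2 in the pooled comparison, 1 of them INSIG1.

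**Figure D1:**
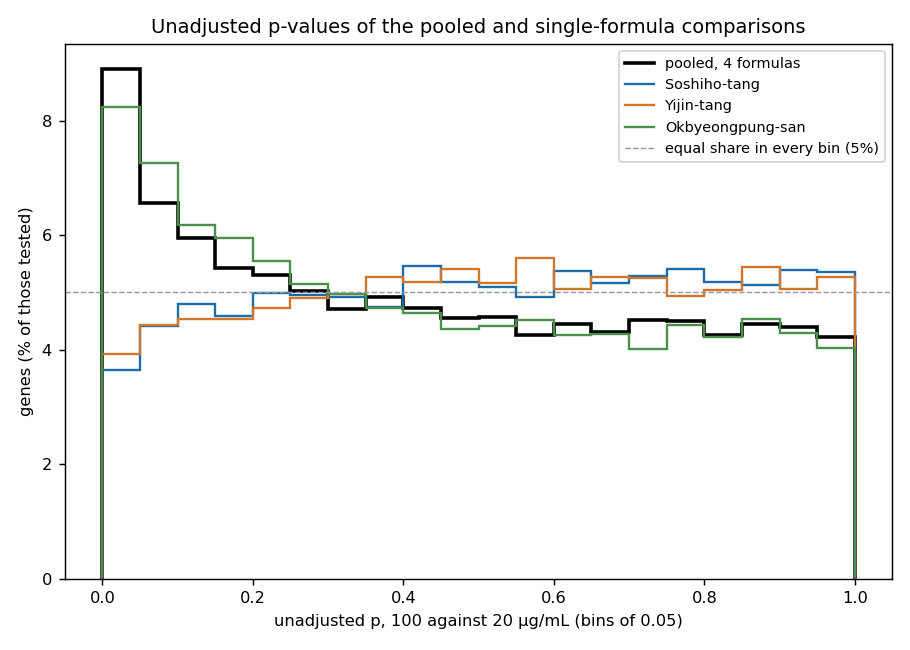
Share of the tested genes (y axis, percent) in each 0.05-wide bin of the unadjusted p (x axis) for medium against low dose; the black line is the pooled comparison and the coloured lines are single formulas, with a dashed line at 5%. In the lowest bin the pooled comparison holds 8.89% of genes and Okbyeongpung-san 8.24%, while Soshiho-tang (3.65%) and Yijin-tang (3.93%) lie below the dashed line.

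INSIG1 (ENSG00000186480; GRCh38, chromosome 7, 155297776 to 155310235), the sterol-sensing anchor described above, had the smallest p. Its level had a lowest value of 123, a median of 135 and a highest of 148 CPM in the medium-dose libraries, against 137, 153 and 162 CPM in the low-dose libraries. The 2 ranges overlapped, but each of the 9 medium-dose libraries lay below the low-dose mean of its own formula. INSIG1 fell by 0.14 ± 0.024 on the log2 scale (SE; adjusted p = 0.017, edgeR), with a log2 fold change of −0.17 in Soshiho-tang, −0.13 in Yijin-tang, −0.14 in Okbyeongpung-san and −0.12 in Soyo-san. A difference between Soshiho-tang, Yijin-tang and Okbyeongpung-san was not detected (edgeR interaction test, unadjusted p = 0.83 and adjusted p = 0.999). Soyo-san was not part of that test.

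LZTS3 (ENSG00000088899; chromosome 20, 3162617 to 3173592), a member of the leucine zipper putative tumour suppressor family, was the lowest expressed of the called genes. Medium-dose libraries held between 3.46 and 4.24 CPM with a median of 3.87, against 4.21 to 5.31 CPM with a median of 4.87 in low-dose libraries. The ranges overlapped by one library of each dose. LZTS3 fell by 0.33 ± 0.063 on the log2 scale (adjusted p = 0.043, edgeR) and was below the low-dose mean of its formula in 9 of 9 libraries. The log2 fold change was −0.28 in Soshiho-tang, −0.36 in Yijin-tang, −0.43 in Okbyeongpung-san and −0.21 in Soyo-san.

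PLEKHB1 (ENSG00000021300; chromosome 11, 73646178 to 73662819), which encodes a pleckstrin homology domain protein, had 33.3, 36.2 and 37.2 CPM as lowest, median and highest value at the medium dose, against 36.4, 40.4 and 42.0 CPM at the low dose. It fell by 0.15 ± 0.028 on the log2 scale (adjusted p = 0.043, edgeR), lower in 9 of 9 libraries. Yijin-tang had the largest single-formula log2 fold change of this gene, −0.20, and Okbyeongpung-san the smallest, −0.08. No difference between Soshiho-tang, Yijin-tang and Okbyeongpung-san was detected (edgeR interaction test, unadjusted p = 0.34).

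AKR1B10 (ENSG00000198074; chromosome 7, 134527592 to 134541408), an aldo-keto reductase that reduces retinal and reactive aldehydes and is an NRF2 target in human cells, was the gene called higher. Its medium-dose libraries held 93.3, 106 and 119 CPM as lowest, median and highest value, against 89.8, 94.5 and 98.7 CPM in low-dose libraries, so the ranges overlapped. AKR1B10 rose by 0.16 ± 0.030 on the log2 scale (adjusted p = 0.043, edgeR) and was higher in 9 of 9 libraries. The log2 fold change was 0.15 in Soshiho-tang, 0.09 in Yijin-tang, 0.26 in Okbyeongpung-san and 0.22 in Soyo-san.

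No one of these calls survived every omission of a single library. The number of genes called was 39 without Soshiho-tang medium 1 and between 0 and 3 in the other 17 fits. Leaving out either Soyo-san library removes that formula from the dose comparison, so those fits nearly repeat each other. INSIG1 kept an adjusted p below 0.05 in 11 of the 18 edgeR fits with a library omitted. It lost the call without medium replicate 3 (0.081) of Soshiho-tang, medium replicate 2 (0.056), low replicate 2 (0.055) or low replicate 3 (0.072) of Yijin-tang, low replicate 3 of Okbyeongpung-san (0.077), or the medium (0.063) or low (0.064) library of Soyo-san. AKR1B10 kept the call in 4 of the 18 fits, those without Soshiho-tang medium 1 or low 1, Yijin-tang low 1 or Yijin-tang medium 3, and its adjusted p lay between 0.00075 and 0.15 over the 18. PLEKHB1 kept it in 4, those without Okbyeongpung-san medium 2 or low 2, Soshiho-tang medium 1 or Soshiho-tang low 3, with adjusted p between 0.013 and 0.15. LZTS3 kept it in 2, those without Soshiho-tang medium 1 or low 2, with adjusted p between 0.0071 and 0.13. The sizes moved less than the calls: over the same fits the log2 fold change of INSIG1 lay between −0.16 and −0.12, that of AKR1B10 between 0.15 and 0.18, that of LZTS3 between −0.36 and −0.32 and that of PLEKHB1 between −0.16 and −0.14. Other settings ended calls too. With equal weight per formula, or in a model of all 30 libraries, AKR1B10 alone of the 4 was called by edgeR. INSIG1 alone was called without Soshiho-tang, PLEKHB1 alone without Okbyeongpung-san, and none of the 4 without Yijin-tang or without Soyo-san. DESeq2 called AKR1B10 and INSIG1 and gave no adjusted p for LZTS3 and PLEKHB1. In batch E alone, with 14 libraries, edgeR called 0 genes, with 1135 at an unadjusted p below 0.05, and the log2 fold changes were −0.15 for INSIG1, 0.15 for AKR1B10, −0.34 for LZTS3 and −0.15 for PLEKHB1. In the 4 libraries of batch D they were −0.14, 0.21, −0.32 and −0.14, in the same gene order, and edgeR called INSIG1 and AKR1B10 of the 4.

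**Figure D2:**
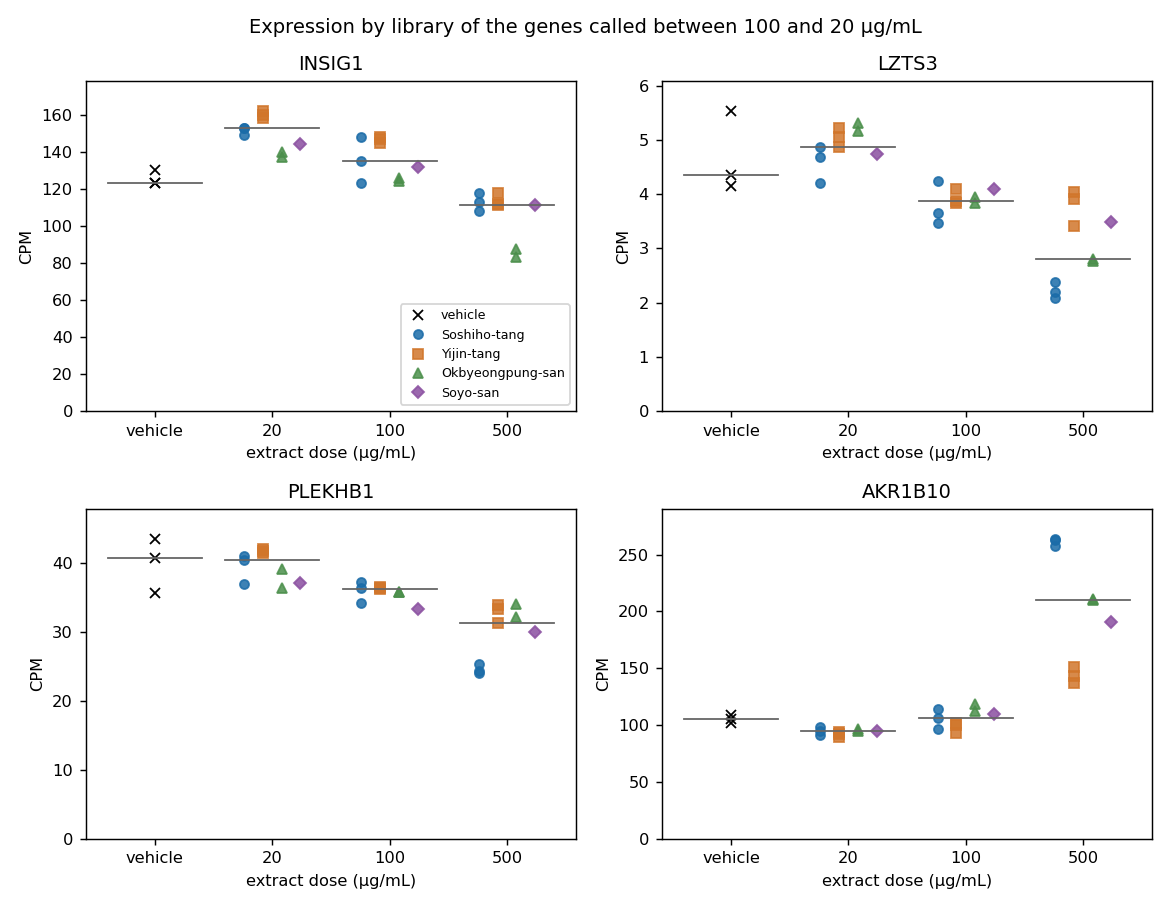
Level in CPM (y axis, from 0) of INSIG1, LZTS3, PLEKHB1 and AKR1B10 in every library at vehicle, 20, 100 and 500 µg/mL (x axis, low to high); symbols mark the formula, crosses the vehicle, and grey lines the median of each dose. Between 20 and 100 µg/mL the medians of INSIG1 (153 and 135 CPM), LZTS3 (4.87 and 3.87 CPM) and PLEKHB1 (40.4 and 36.2 CPM) step down and that of AKR1B10 (94.5 and 106 CPM) steps up, while vehicle lies at 123 CPM for INSIG1 and 105 CPM for AKR1B10.

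The dose series places these steps. INSIG1 had a median of 123 CPM in vehicle, 153 at 20 µg/mL, 135 at 100 µg/mL and 111 at 500 µg/mL. Vehicle thus lay below both doses compared here. The AKR1B10 medians were 105 CPM in vehicle, 94.5 at 20 µg/mL, 106 at 100 µg/mL and 210 at 500 µg/mL, so vehicle lay above the low dose and next to the medium dose. LZTS3 had medians of 4.36, 4.87, 3.87 and 2.80 CPM and PLEKHB1 of 40.7, 40.4, 36.2 and 31.3 CPM in the same dose order. These placements carry no test, the comparisons share libraries, and the 3 vehicle libraries belong to a set named apart from the extract libraries, so a difference between them and the low dose cannot be told apart from a difference between sets.

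Beyond the called genes, those with the next smallest p in each direction did not pass the adjustment. MSMO1, the methylsterol monooxygenase of cholesterol synthesis, had 56.2, 60.3 and 66.0 CPM as lowest, median and highest value at the medium dose, against 61.1, 66.2 and 69.4 CPM at the low dose (log2 fold change −0.12 ± 0.025, adjusted p = 0.073, edgeR). WNK4, a kinase that controls ion transporters, had 9.22, 10.6 and 11.9 CPM at the medium dose, against 11.6, 12.7 and 13.2 CPM at the low dose (−0.22 ± 0.044, adjusted p = 0.055, edgeR). Both sets of libraries overlapped, WNK4 in a narrow band.

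On the higher side stood PCNA, the sliding clamp of DNA replication, with 199, 210 and 226 CPM at the medium dose against 189, 197 and 205 CPM at the low dose (0.09 ± 0.019, adjusted p = 0.094, edgeR). COTL1, an actin-binding protein, had a log2 fold change of 0.11 ± 0.023 and ADGRF1, an adhesion G protein-coupled receptor, of 0.22 ± 0.045 (adjusted p = 0.11 for each, edgeR). PDCD5, named for programmed cell death, had 57.3, 59.6 and 63.8 CPM at the medium dose against 52.6, 55.8 and 57.3 CPM at the low dose and a log2 fold change of 0.11 ± 0.024 (adjusted p = 0.12, edgeR). Its ranges met without overlapping. Across all genes tested, 180 (1.21%) had every medium-dose library above the low-dose mean of its formula and 140 (0.938%) had every one below it; AKR1B10, PCNA, COTL1 and PDCD5 were in the first set, and INSIG1, LZTS3, PLEKHB1 and MSMO1 in the second. Such tallies are no separate support for genes picked by their p in the same libraries. Libraries of a formula also share its low-dose mean.

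**Figure D3:**
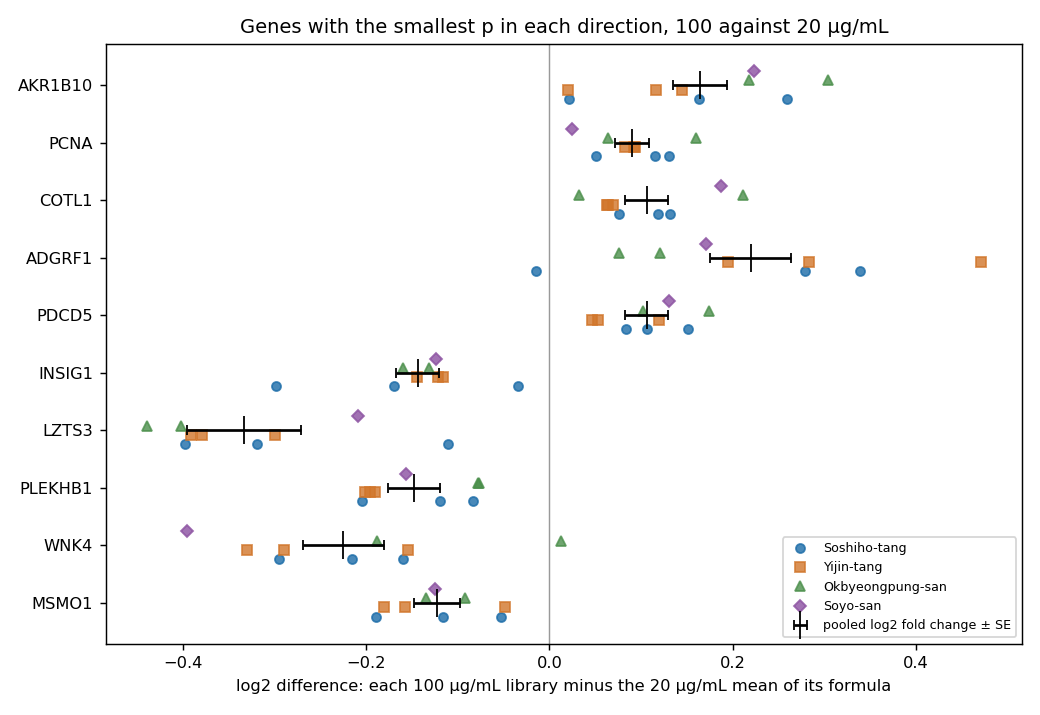
Log2 difference of each medium-dose library from the low-dose mean of its formula (x axis) for the 5 genes with the smallest p in each direction (rows), with symbols by formula and a black bar for the pooled log2 fold change ± SE. All 9 libraries lie on one side of 0 for every gene shown except ADGRF1 and WNK4, which have 8 of 9. The genes were picked by their p in these same libraries.

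Gene lists show how far such small shifts ran within known programmes. The 32 lists described hold 612 tested genes, 22 of them in more than one list, and 30 lists held no gene that passed the adjustment. Each list is therefore given by its median log2 fold change and by its count at an unadjusted p below 0.05, beside 4.44% higher, 4.46% lower and a median of −0.0016 over all genes tested. Medians of 27 lists lay within 0.05 of 0.

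Sterol genes leaned lower. Of 25 tested genes of cholesterol synthesis and SREBP2 targets, 24 had a negative log2 fold change, 12 with an unadjusted p below 0.05 and 0 of them higher, and the median was −0.05. INSIG1 was the member that passed the adjustment. TM7SF2, a sterol reductase, had 29.4, 31.4 and 32.8 CPM at the medium dose against 32.9, 33.5 and 35.0 CPM at the low dose, ranges that did not overlap (log2 fold change −0.11 ± 0.028, adjusted p = 0.15, edgeR). LSS, which closes the sterol ring, had a log2 fold change of −0.10 ± 0.027 (adjusted p = 0.20, edgeR) and HMGCS1, which makes HMG-CoA, of −0.08 ± 0.036 (adjusted p = 0.55, edgeR). List medians by formula were −0.08 in Soshiho-tang, −0.04 in Yijin-tang, −0.07 in Okbyeongpung-san and −0.03 in Soyo-san, and 8 of 9 medium-dose libraries had a negative list median. Leaving out single libraries gave 10 to 17 lower members. Relative to vehicle the list's median log2 ratio was 0.08 at 20 µg/mL, 0.03 at 100 µg/mL and −0.15 at 500 µg/mL.

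Promoters of 2 sterol genes with the smallest p are shown because members of the list leaned the same way. The letters are RefSeq sequence (GRCh38.p14, plus strand) from 250 bases before the RefSeq start up to the first base of the gene in GENCODE 29, at chr7:155297628-155297775 for INSIG1 and chr4:165327419-165327622 for MSMO1. Capitals mark CCAAT on either strand (ATTGG on the reverse), the motif bound by NF-Y, a factor known to act with SREBP proteins.
INSIG1: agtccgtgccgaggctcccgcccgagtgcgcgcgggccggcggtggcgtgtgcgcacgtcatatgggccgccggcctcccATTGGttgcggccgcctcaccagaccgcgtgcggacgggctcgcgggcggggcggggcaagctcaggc
MSMO1: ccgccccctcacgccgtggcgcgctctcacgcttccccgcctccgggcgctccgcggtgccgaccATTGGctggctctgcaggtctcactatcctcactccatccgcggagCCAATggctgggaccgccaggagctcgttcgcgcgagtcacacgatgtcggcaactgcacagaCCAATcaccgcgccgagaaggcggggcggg
INSIG1 held 1 such box in the stretch shown and MSMO1 held 3. Promoters were found for 18 of the 25 tested list genes, and in the 250 bases before the start 15 of the 18 (83.3%) held CCAAT on either strand, against 33.0% of 27305 promoters, 1 per gene. The sterol element spelled TCACNCCAC, searched on both strands, was in 1 of the 18 and in 0.875% of all. A match is a description of the letters and not a site. These shares belong to the list as written, whatever the dose comparison gave, and the promoters of all genes were not matched to it.

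Other lipid lists had few such genes. Of 8 fatty acid synthesis genes 2 were lower at an unadjusted p below 0.05, among them SCD, the stearoyl-CoA desaturase, with a log2 fold change of −0.06 ± 0.024 (adjusted p = 0.48, edgeR). The lower count was 0 without Okbyeongpung-san low 3 or Soshiho-tang medium 3 and 2 without Okbyeongpung-san low 2 or medium 3, Soshiho-tang medium 1 or low 3, Yijin-tang low 2 or Yijin-tang medium 3; it was 1 without any other library. SCD stood at −0.04 without the Okbyeongpung-san library that stood apart. Among 8 LXR targets 1 was higher and 2 lower; the cholesterol exporter ABCA1 had a log2 fold change of −0.17 ± 0.076 (adjusted p = 0.52) and ABCG1 of 0.02 ± 0.089 (adjusted p = 0.97, both edgeR). None of 12 PPAR and fatty acid oxidation genes had an unadjusted p below 0.05.

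NRF2 and AHR targets leaned higher. Of 24 NRF2 targets, 23 had a positive log2 fold change, 10 (41.7%) with an unadjusted p below 0.05 and 0 lower, and the median was 0.06. AKR1B10 was the member that passed the adjustment. SRXN1, the sulfiredoxin that repairs peroxiredoxins, had 62.9, 67.8 and 72.4 CPM at the medium dose against 57.7, 62.3 and 67.0 CPM at the low dose (log2 fold change 0.10 ± 0.027, adjusted p = 0.21, edgeR). Glutathione genes gave 0.08 ± 0.024 for the reductase GSR and 0.07 ± 0.022 for GCLC, the catalytic subunit of glutathione synthesis (adjusted p = 0.25 and 0.29, edgeR). NQO1, a quinone reductase, had 0.07 ± 0.028 (adjusted p = 0.46), HMOX1, the haem oxygenase, 0.08 ± 0.066 (adjusted p = 0.76), and the cystine carrier SLC7A11 0.04 ± 0.042 (adjusted p = 0.84, all edgeR). With single libraries left out HMOX1 lay between 0.04, without Okbyeongpung-san medium 2, and 0.12, without Okbyeongpung-san medium 3, and SLC7A11 between 0.01, without Yijin-tang medium 1, and 0.07, without Okbyeongpung-san medium 2. List medians by formula were 0.05 in Soshiho-tang, 0.07 in Yijin-tang and 0.08 in Okbyeongpung-san and in Soyo-san, and 8 of 9 libraries had a positive one. Relative to vehicle the median log2 ratio was −0.08 at 20 µg/mL, 0.01 at 100 µg/mL and 0.43 at 500 µg/mL.

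AHR targets had the highest median of the lists, 0.12, with 9 of 10 positive, 8 (80.0%) with an unadjusted p below 0.05 and 0 lower. AHRR was the member that did not rise, at −0.03 ± 0.082 (adjusted p = 0.95, edgeR), with 5 of 9 libraries higher. Its log2 fold change was 0.006 in Soshiho-tang, 0.17 in Yijin-tang, −0.36 in Okbyeongpung-san and −0.18 in Soyo-san. The list median was positive in 8 of 9 libraries, between −0.11 and 0.31. CYP1A1, the classical AHR-induced P450, had 0.586, 1.34 and 3.47 CPM at the medium dose against 0.365, 0.710 and 1.43 CPM at the low dose. Its ranges overlapped, the log2 fold change was 1.14 ± 0.32, and 8 of 9 libraries were higher (adjusted p = 0.30, edgeR). CYP1B1 had 47.0, 65.7 and 101 CPM at the medium dose against 50.1, 54.2 and 67.8 CPM at the low dose (0.31 ± 0.13, adjusted p = 0.54, edgeR). ALDH3A1, an aldehyde dehydrogenase, had 21.0, 27.5 and 31.2 CPM against 19.7, 22.7 and 24.8 CPM at the low dose (0.27 ± 0.064, adjusted p = 0.20, edgeR). UGT1A6, a glucuronosyltransferase whose gene shares exons with its neighbours in the UGT1A cluster, had 0.12 ± 0.032 (adjusted p = 0.20, edgeR), and TIPARP, which restrains the receptor, 0.11 ± 0.055 (adjusted p = 0.59, edgeR). Soshiho-tang medium 1 went the other way for several members, with log2 differences from its formula's low-dose mean of −0.67 for CYP1A1, −0.41 for CYP1B1, −0.17 for TIPARP and −0.11 for NQO1 and for ALDH3A1. Leaving out single libraries gave 5 to 9 higher members, with 5 without Okbyeongpung-san medium 3, Yijin-tang medium 1, Soshiho-tang medium 3 or Yijin-tang low 3. Relative to vehicle the median log2 ratio was 0.16 at 20 µg/mL, 0.27 at 100 µg/mL and 0.73 at 500 µg/mL. NQO1 is in this list and in that of NRF2. Among 7 ABC drug efflux pumps 1 was higher and 1 lower at an unadjusted p below 0.05, and among 6 metallothionein and zinc genes none was.

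**Figure D4:**
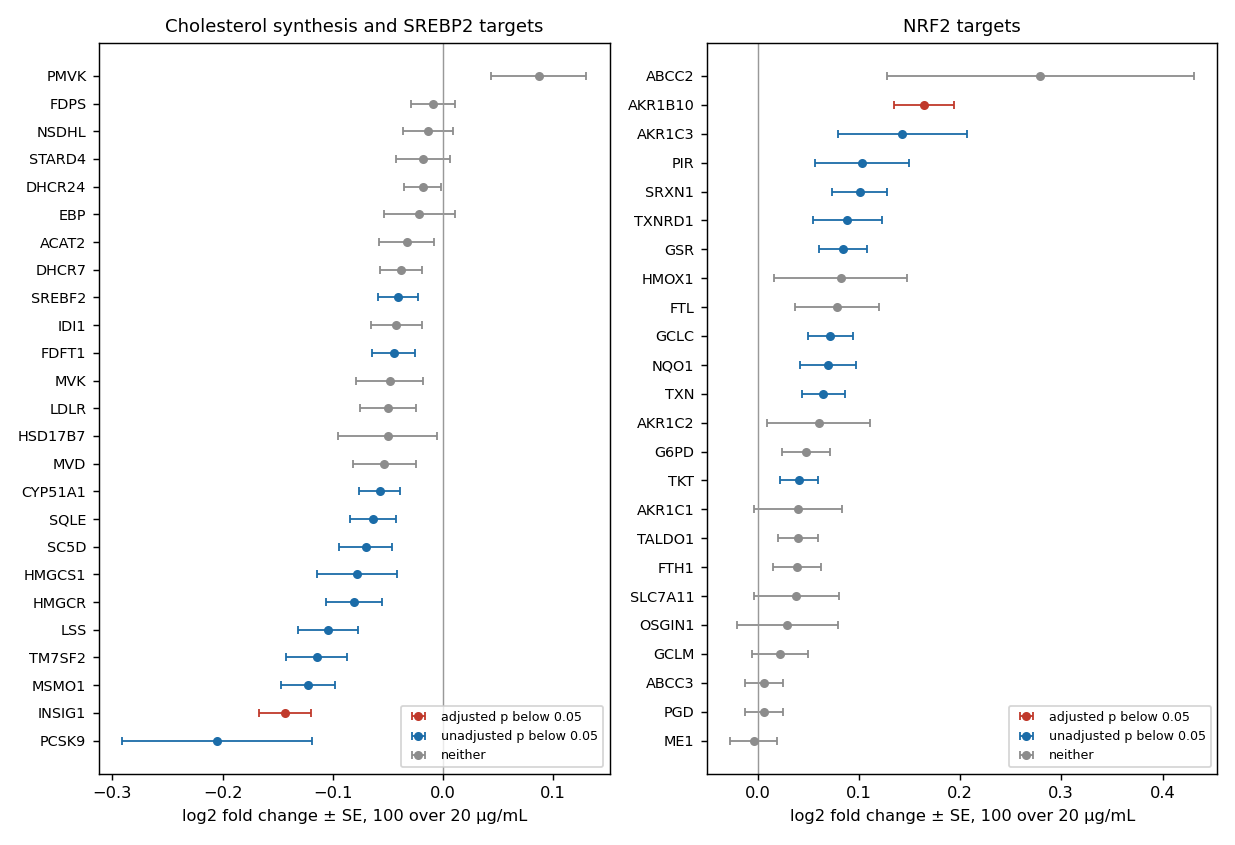
Log2 fold change ± SE (x axis, medium over low dose, pooled) of the tested members of the cholesterol list (left) and of the NRF2 list (right), sorted by size; red marks an adjusted p below 0.05, blue an unadjusted p below 0.05. In the left panel 24 of 25 members lie below 0 and in the right panel 23 of 24 lie above 0, with INSIG1 and AKR1B10 in red.

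Genes of cell division leaned higher, and no member of the 2 lists passed the adjustment. Of 30 DNA replication and G1/S genes 28 had a positive log2 fold change, 15 with an unadjusted p below 0.05 and 0 lower, and the list median was 0.05, positive in 9 of 9 libraries. MCM7, a helicase subunit, had 405, 420 and 435 CPM at the medium dose against 391, 397 and 415 CPM at the low dose (0.08 ± 0.018, adjusted p = 0.14, edgeR). MCM4, of the same helicase, had 0.06 ± 0.019 and RFC2, a subunit of the clamp loader, 0.07 ± 0.022 (adjusted p = 0.29 and 0.32, edgeR). Without Soshiho-tang medium 2 the count was 8. Of 25 genes of mitosis and G2/M, 24 were positive and 9 had an unadjusted p below 0.05, with 0 lower and a median of 0.04; the count was 15 without the Okbyeongpung-san library that stood apart. CCNB1, the mitotic cyclin, had 0.07 ± 0.020 and BIRC5, survivin, 0.07 ± 0.027 (adjusted p = 0.27 and 0.40, edgeR). MKI67, a proliferation marker, had 0.02 ± 0.031 (adjusted p = 0.91, edgeR).

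Genes of the growth machinery lay in the same range. Ribosome biogenesis had 23 of 25 positive members, 10 of them with an unadjusted p below 0.05 and 0 lower, with a list median of 0.04 and a positive median in 9 of 9 libraries. FBL, the methyltransferase of small nucleolar particles, had 323, 331 and 351 CPM at the medium dose against 311, 317 and 322 CPM at the low dose. Its ranges did not overlap (0.07 ± 0.018, adjusted p = 0.20, edgeR). DKC1, the pseudouridine synthase, had 0.07 ± 0.020 (adjusted p = 0.28, edgeR). Cytosolic ribosomal proteins had 50 of 54 positive, but 3 with an unadjusted p below 0.05 (1 to 8 when single libraries were left out), and these genes share reads with near-identical pseudogenes, so their values are uncertain. The proteasome had 33 of 34 positive, 12 with an unadjusted p below 0.05 and 0 lower, with a median of 0.04 and a positive median in 9 of 9 libraries; its ring subunits PSMA2 and PSMA6 had 0.09 ± 0.026 and 0.06 ± 0.019 (adjusted p = 0.28 and 0.31, edgeR). Nuclear-encoded respiratory chain genes had 33 of 39 positive and 8 with an unadjusted p below 0.05, a count that lay between 4 and 10 when single libraries were left out. It was 5 without any one of the 4 Okbyeongpung-san libraries, and 4 without Soshiho-tang medium 2, Yijin-tang low 2 or Yijin-tang medium 3.

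Transcripts of the mitochondrial genome had list medians on both sides of 0 over the formulas. All 13 tested had a negative pooled log2 fold change, none with an unadjusted p below 0.05, and the list median was −0.04 pooled, 0.02 in Soshiho-tang, −0.17 in Yijin-tang, 0.13 in Okbyeongpung-san and −0.05 in Soyo-san. In Okbyeongpung-san these genes took 12.2% of counts in medium 2, the library that stood apart, against 10.3% in low 2, and 10.3% in medium 3 against 10.8% in low 3, so the positive value rests on that library. Mitochondrially encoded genes took 11.1% ± 0.617 of counts at the medium dose and 11.4% ± 0.856 at the low dose (SD, n = 9 each), a difference of −0.277 percentage points (exact permutation test within formula, two-sided, p = 0.45).

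Stress lists gave mixed counts. ER chaperones and other genes of the unfolded protein response had 16 of 20 positive, 8 with an unadjusted p below 0.05 and 0 lower, with a median of 0.03. HSPA5, the main lumenal chaperone, had 421, 439 and 449 CPM at the medium dose against 402, 423 and 432 CPM at the low dose (0.05 ± 0.017, adjusted p = 0.32, edgeR), and HSP90B1 had 0.05 ± 0.019 (adjusted p = 0.36, edgeR). Without the medium-dose or the low-dose library of Soyo-san the count was 4 or 5. Among 21 genes of ATF4 and the integrated stress response 5 were higher and 1 lower. The higher count was 1 without Soshiho-tang low 3, 2 without Okbyeongpung-san low 3 or Soshiho-tang medium 2, and 3 without Okbyeongpung-san low 2, Soshiho-tang medium 3 or any one medium-dose library of Yijin-tang. ASNS, asparagine synthetase, had 0.07 ± 0.026 and SLC38A2, a neutral amino acid carrier, −0.09 ± 0.031 (adjusted p = 0.36 and 0.37, edgeR), while DDIT3 had −0.03 ± 0.075 (adjusted p = 0.95, edgeR). Of 18 heat shock genes 3 were higher, among them the mitochondrial chaperonin HSPD1 at 0.05 ± 0.019 (adjusted p = 0.43, edgeR). That count lay between 1 and 4 with single libraries left out, and was 1 without any one library of Okbyeongpung-san or Soyo-san, or without Soshiho-tang medium 2, medium 3 or low 2. Of 19 p53 targets 1 was higher and 2 lower, and CDKN1A, the cell cycle inhibitor p21, had −0.04 ± 0.043 (adjusted p = 0.83, edgeR).

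Interferon response genes leaned lower, with 20 of 25 negative, 9 with an unadjusted p below 0.05 against 1 higher, and a median of −0.07. IRF9, the DNA-binding part of the type I interferon complex, had 6.46, 8.14 and 9.29 CPM at the medium dose against 7.57, 9.53 and 10.4 CPM at the low dose, with overlap, and was lower in 9 of 9 libraries (−0.24 ± 0.057, adjusted p = 0.15, edgeR). IFIT1, an RNA-binding antiviral protein, had −0.32 ± 0.086 and OASL, of the oligoadenylate synthetase family, −0.24 ± 0.083 (adjusted p = 0.21 and 0.37, edgeR). Their highest low-dose values were 5.35 and 5.55 CPM. Without either library of Soyo-san the lower count was 5. Inflammatory and growth factor lists had few such genes. None of 14 NF-kB genes had an unadjusted p below 0.05, and CXCL8, a chemokine, had 0.02 ± 0.056 (adjusted p = 0.95, edgeR). Immediate early genes had 19 of 22 negative but 2 with an unadjusted p below 0.05, one of them BTG2, an antiproliferative gene, at −0.09 ± 0.026 (adjusted p = 0.26, edgeR). ERK feedback had 1 of 13 lower, and YAP and TEAD targets 0 of 13 in either direction.

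Intestinal programmes leaned lower too. WNT targets and stem cell genes had 14 of 16 negative, 6 with an unadjusted p below 0.05 and 0 higher, with a median of −0.05 that was negative in 9 of 9 libraries. SOX4 and SOX9, transcription factors of the crypt base, had −0.10 ± 0.026 and −0.08 ± 0.025 (adjusted p = 0.22 and 0.28, edgeR), and EPHB3, an ephrin receptor that positions crypt cells, −0.16 ± 0.043 (adjusted p = 0.24, edgeR). AXIN2, the feedback target of WNT signalling, had 0.003 ± 0.027 (adjusted p = 0.99, edgeR). Goblet and secretory genes had a median of −0.09, the lowest with all 18 libraries, with 12 of 14 negative and 4 with an unadjusted p below 0.05 against 0 higher. The count was 7 without Soshiho-tang medium 1 and 2 without Soshiho-tang low 1 or Yijin-tang medium 1. Over such omissions the median lay between −0.12 without Soshiho-tang medium 1 and −0.05 without Soshiho-tang medium 3, and in some of them the interferon or the WNT list had a lower one. ATOH1, the factor that commits secretory cells, had 2.62, 3.76 and 4.46 CPM at the medium dose against 3.53, 4.50 and 4.76 CPM at the low dose (−0.25 ± 0.082, adjusted p = 0.35, edgeR). REG4 had −0.11 ± 0.048 (adjusted p = 0.51) and the mucin MUC2 −0.14 ± 0.087 (adjusted p = 0.69, both edgeR). The most expressed members were MUC5AC, AGR2 and MUC13, with means of 249, 197 and 107 CPM over the 18 libraries. They had −0.0016 ± 0.082, −0.03 ± 0.040 and −0.07 ± 0.034 (adjusted p = 0.997, 0.87 and 0.58, edgeR). MUC1 and DLL1, both lower at an unadjusted p below 0.05, averaged 1.2 and 1.1 CPM. Among 14 enterocyte genes 3 were lower and 1 higher; VIL1, the microvillus protein villin, had −0.07 ± 0.021 (adjusted p = 0.26, edgeR).

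FOXO and insulin response genes had 11 of 15 negative and 4 with an unadjusted p below 0.05 against 0 higher, with a median of −0.05. FOXO3 had 71.7, 81.9 and 83.5 CPM at the medium dose against 80.4, 87.4 and 89.6 CPM at the low dose (−0.10 ± 0.025, adjusted p = 0.20, edgeR). CCNG2 and BCL6, both known FOXO targets, had −0.11 ± 0.031 and −0.14 ± 0.042 (adjusted p = 0.26 and 0.29, edgeR). The lists left over were glycolysis and hypoxia (4 higher and 1 lower of 28), amino acid and glucose transporters (2 and 1 of 14), lysosome and autophagy (1 and 4 of 24) and SR proteins, hnRNPs and splicing kinases (0 and 0 of 25). The lower count of lysosome genes was 2 without either Soyo-san library or Yijin-tang low 1, and 1 without Soshiho-tang medium 3 or low 3.

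**Figure D5:**
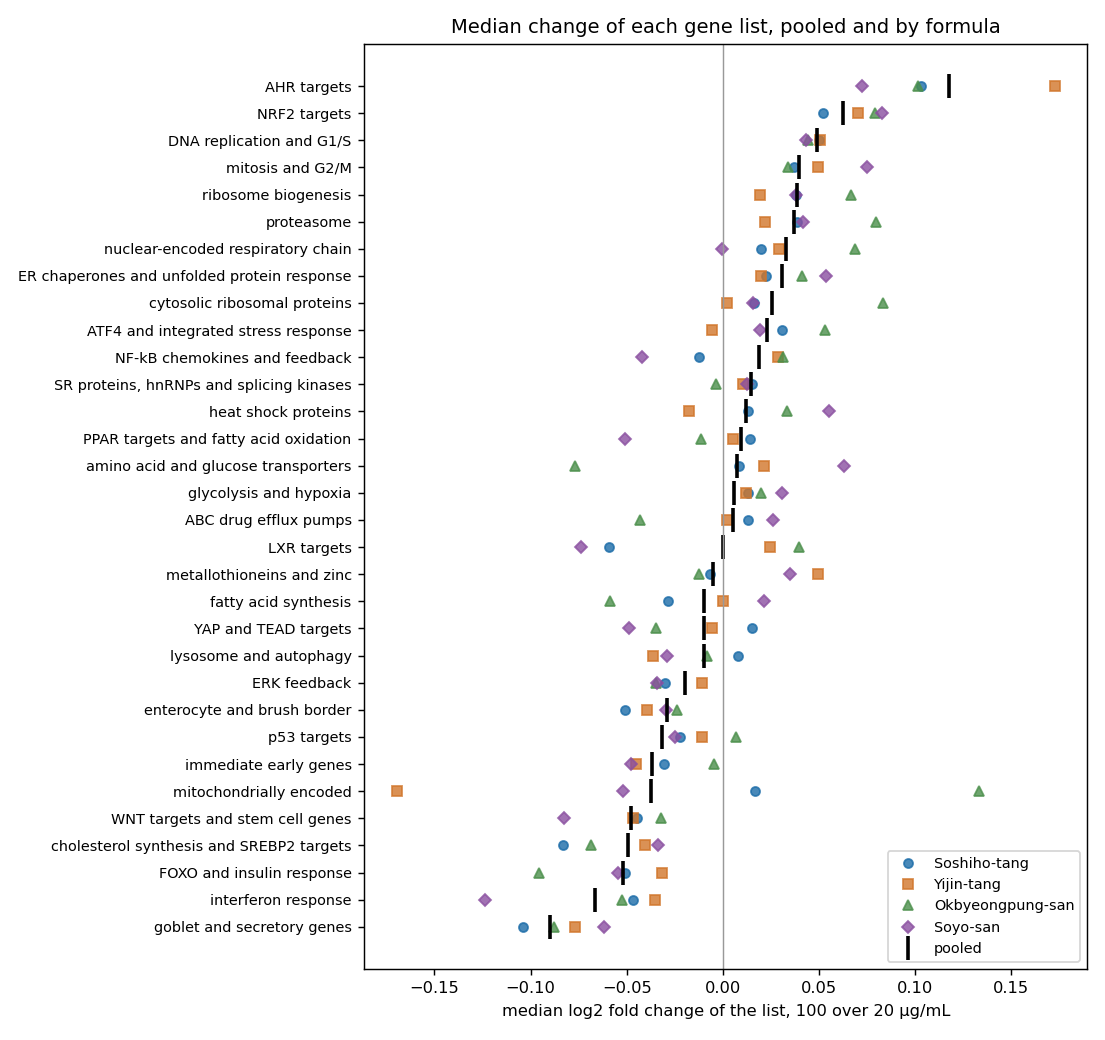
Median log2 fold change (x axis, medium over low dose) of each of the 32 gene lists (rows), pooled as a black bar and by formula as symbols. Pooled medians run from −0.09 for goblet and secretory genes to 0.12 for AHR targets, and the formulas lie on one side of 0 for both of these lists but on both sides for mitochondrially encoded genes.

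A difference between Soshiho-tang, Yijin-tang and Okbyeongpung-san in the step from low to medium dose was called for 0 genes (edgeR interaction test), with 525 (3.52%) at an unadjusted p below 0.05. Across 12022 genes the log2 fold changes of 2 formulas, which share no library, correlated weakly. Pearson's r was 0.16 between Soshiho-tang and Yijin-tang, 0.07 between Soshiho-tang and Okbyeongpung-san, 0.06 between Soshiho-tang and Soyo-san, −0.05 between Yijin-tang and Okbyeongpung-san, 0.03 between Yijin-tang and Soyo-san and −0.02 between Okbyeongpung-san and Soyo-san. Spearman's rho was 0.19, 0.13, 0.14, 0.061, 0.085 and 0.073 in the same order of pairs, so both negative values of r stood beside a positive rho. Genes are not independent replicates, and no p is given. The median standard error within a formula was 0.06 to 0.07, as large as the SD of the pooled log2 fold changes (0.06). Noise of that size lowers r, so a weak r does not show that the formulas acted differently. Each Okbyeongpung-san value also includes the library that stood apart. For 11967 of the 12022 genes (99.5%) the 95% interval of the pooled fold change lay within 1.5-fold in either direction, and for 11224 (93.4%) within 1.2-fold. Only 3 of the 12022 genes had a pooled log2 fold change above 0.5 in size.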

How the data were processed

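The tools named in the submitters' processing notes are STAR 2.7.3a, RSEM 1.3.3, Trim Galore 0.6.5 and FastQC 0.11.9, and the build named is GRCh38; which annotation release was counted is not given in the sources used here. RSEM expected counts per gene were deposited by the authors without normalisation between libraries; 9.52% to 11.52% of a library's values were not whole. Dividing reads between genes in this way makes values of overlapping or near-identical genes uncertain. All 60675 rows name a gene; 30 unnamed empty columns were not used.

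Expected counts were rounded and tested with edgeR 4.0.16 in R 4.3.3 (TMM factors 0.986 to 1.017, filterByExpr by dose, robust quasi-likelihood, Benjamini-Hochberg over 14923 genes). The pooled model held formula and dose over the 18 libraries. Single formulas and their differences came from 1 mean per formula and dose in the same libraries. CPM used TMM over all 30 libraries, and ratios to vehicle used log2(CPM + 0.5). Alternatives were other size factors, no filter, DESeq2 1.42.0, limma 3.58.1 with voom, blocks, subsets and omitted libraries. The test was checked on simulated counts with independent libraries and a dose effect shared by all formulas. No simulated library was made to stand apart, so that feature of the data was not covered.

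Named genes were the 5 with the smallest p in each direction, up to 4 members of each list, and 14 fixed markers. AHRR was added as the AHR target that did not rise, and MUC5AC, AGR2 and MUC13 as the most expressed goblet genes. The comparison, the members and the lists were chosen with earlier results of these data known. Coordinates came from GENCODE 29, which held 57055 of the identifiers. Depth limits precision: totals ran from 19836372 to 27309588 counts.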

Additional observations from a re-analysis of the deposited data

Results flagged for a closer look

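In 10 values, 1 of the 9 libraries of a dose lay far from the rest: its gap to the nearest library, as a share of the whole range, exceeded Dixon's 95% critical value. Of 124 such tests 10 passed that limit, and chance flags about 1 in 20 groups. The medium-dose library of Okbyeongpung-san replicate 2, which stood apart over all genes, accounts for 4. It was highest for PCNA (226 CPM, the other medium-dose libraries 199 to 212 CPM, gap 0.515) and lowest for MKI67 (857 against 996 to 1070 CPM, gap 0.666), FOXO3 (71.7 against 79.5 to 83.5 CPM, gap 0.678) and SCD (1190 against 1350 to 1530 CPM, gap 0.510). Soshiho-tang medium 1 was lowest for ALDH3A1 (21.0 against 25.7 to 31.2 CPM, gap 0.513) and Soshiho-tang medium 3 highest for SOX9 (168 against 146 to 157 CPM, gap 0.503). Okbyeongpung-san medium 3 was highest for UGT1A6 (54.5 against 48.9 to 51.5 CPM, gap 0.531). Among low-dose libraries, Soshiho-tang low 1 was highest for LSS (108 against 98.6 to 103 CPM, gap 0.495), Soshiho-tang low 2 lowest for HSPA5 (402 against 417 to 432 CPM, gap 0.494) and Yijin-tang low 1 highest for MCM7 (415 against 391 to 402 CPM, gap 0.541).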

How the results depend on the processing

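The pooled counts of called genes (1 higher and 3 lower) depended on the settings. They were 70 and 107 of 32029 genes with no filter on low counts, 8 and 1 with DESeq2, 1 and 5 with voom, 2 and 0 with equal weight per formula, and 2 and 5 with formula and batch as a block. Leaving out a formula gave 0 and 2 without Okbyeongpung-san, 0 and 0 without Soyo-san, 1 and 1 without Soshiho-tang and 0 and 0 without Yijin-tang. Batch E alone gave 0 and 0, and batch D alone, 4 libraries with 1 residual degree of freedom, gave 34 and 37. A model of all 30 libraries gave 1 and 0. Omitting single libraries gave 0 to 10 higher and 0 to 29 lower; all 4 calls were kept without Soshiho-tang medium 1, which gave 39. Size factors by relative log expression gave the same counts. All 4 genes were also called with these size factors, no filter, voom, the replicate block and formula and batch as a block. The cause of these differences was not tested, beyond fewer libraries in the subsets.

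Within formulas, no filter gave 8 genes in Soshiho-tang, 9 in Yijin-tang and 88 in Okbyeongpung-san; DESeq2 gave 1 in Yijin-tang and 3 in Okbyeongpung-san; and a formula's own libraries alone gave 1 in Soshiho-tang and 5 in Yijin-tang. Omitted libraries gave 0 to 0 in Soshiho-tang and Yijin-tang and 0 to 1129 in Okbyeongpung-san, where a lone library was assumed to vary like the others. For the difference between formulas, no filter gave 44 genes and omitted libraries 0 to 485, the most without Okbyeongpung-san medium 3. The difference in mitochondrial share lay between −0.503 and −0.0867 percentage points with libraries omitted.

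Whether replicate numbers pair the libraries was not settled. Library names put the medium-dose and low-dose libraries of a replicate number in the same named set. Same-numbered pairs correlated at −0.03 to 0.19, 3 of 8 over 0.1, against −0.23 to 0.13 for different numbers. For 6 of 8 medium-dose libraries the own number correlated best. In Okbyeongpung-san every r was 0.091 in size, a single value counted for both replicates, which are also in different batches. With the replicate block the pooled fit called 7 higher and 16 lower, against 1 and 3 in the main fit, Okbyeongpung-san 3 and the difference between formulas 2.

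Fixed markers near 0 turned sign in some settings. The log2 fold change of HMOX1 was −0.059 and that of CDKN1A 0.048 in batch D. ABCG1 was −0.034 with equal weight, −0.0078 without Okbyeongpung-san, −0.065 without Yijin-tang and −0.020 to 0.060 with libraries omitted. MKI67 was −0.00013 without Yijin-tang and −0.0026 in batch E. DDIT3 was 0.052 without Soshiho-tang and −0.072 to 0.014 with libraries omitted. CXCL8 was −0.020 with equal weight, −0.021 without Yijin-tang, −0.041 in batch D and −0.0038 to 0.058 with libraries omitted. AXIN2 was −0.0073 without Soyo-san, −0.0046 without Yijin-tang, −0.0042 in batch E and −0.011 to 0.016 with libraries omitted. The list medians of AHR, NRF2, cholesterol, interferon, WNT, goblet, DNA replication, mitosis, ribosome biogenesis, proteasome and FOXO genes kept their sign in all 32 settings. So did those of ATF4, ER chaperone, heat shock, fatty acid synthesis, immediate early and ERK feedback genes. Lists near 0 kept theirs too, among them YAP and TEAD targets (median −0.01) and glycolysis and hypoxia (0.006). The same held for cytosolic ribosomal proteins, lysosome and autophagy, and SR proteins and hnRNPs. The settings reuse the same libraries, so a kept sign is no separate support for a shift. List medians of enterocyte genes and amino acid and glucose transporters turned in 2 each, those of p53, PPAR, NF-kB, respiratory chain and mitochondrially encoded genes in 1 each, that of metallothionein and zinc genes in 7, that of ABC pumps in 6 and that of LXR targets, nearest to 0, in 12.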
